A study of Mus musculus with 14 samples.

Results

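The 1775 regions described here are stretches of the mouse genome that carried the coactivator p300 in gastruloids and at which no peak of p300 was listed in mouse embryonic stem cells (mESCs). They also held none of the reproducible regions of RXRα, Sp5 or Zeb2 mapped in gastruloids, and their strongest summit lay within 1 kb of an end of a protein-coding gene. They were chosen by presence and absence in the peak lists. Both p300 gastruloid libraries had to hold a peak, neither p300 mESC library could hold one, and no factor could have a region found in both of its libraries. Of 53025 p300 regions of gastruloids, 34812 were gastruloid-only, 6292 of these lay at a gene end, and 1775 remained, or 3.35% of all regions and 28.2% of the gastruloid-only regions at gene ends. The other 4517 held a factor: Sp5 at 3711, Zeb2 at 2398 and RXRα at 433 of the 6292.

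All groups came from an E14 mESC line that carries reporters. p300 carried a V5 tag joined to the biotin ligase miniTurboID and was precipitated through V5. RXRα, Sp5 and Zeb2 carried an HA tag joined to the FKBP12F36V degron, each in its own line, and were precipitated through HA, so that p300 and the factors were not mapped in the same cells. The mESCs were grown with serum and LIF. The gastruloids were aggregates seeded from 300 cells, given 3 µM of the Wnt pathway activator CHIR99021 at 48 h and collected at 120 h. p300 and RXRα were mapped in mESCs and in gastruloids, Sp5 and Zeb2 in gastruloids only, each in 2 libraries, and the 2 inputs came from the p300 line. The labels do not say whether the replicates were separate cultures, so the spread between them may be technical.

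p300, the product of Ep300, is an acetyltransferase of histones that binds no DNA sequence of its own and is brought to enhancers and promoters by transcription factors. RXRα is the shared partner of many nuclear receptors, those for retinoic acid among them, Sp5 is a zinc finger factor of the Sp family downstream of Wnt, and Zeb2 is a zinc finger repressor known from neural and mesenchymal development. Gastruloids elongate like the posterior embryo and form tail bud, presomitic mesoderm and neural tissue. Many mammalian genes, housekeeping genes above all, start in stretches rich in CpG, whereas genes of differentiated tissues more often start outside them.

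The sequences below show what lies just before the start of 7 genes with such a region. Each is the 250 bases before the start, 5′ to 3′ on the strand of the gene, from the RefSeq promoter table of build GRCm38.p6. Mesp2, Dct, Akr1c13 and Krt39 are shown because their regions had the highest folds among those with the summit inside the promoter. Msgn1, Hoxb1 and Rxra were added after their values were seen, as a somite gene, a Hox gene and a profiled factor. Capitals mark matches to the 14 motifs searched, all of which are spelled out with their shares further on. A motif on the opposite strand shows as its reverse complement, so that the GC box of Dct and the CCAAT boxes of Hoxb1 are printed reversed.
Mesp2: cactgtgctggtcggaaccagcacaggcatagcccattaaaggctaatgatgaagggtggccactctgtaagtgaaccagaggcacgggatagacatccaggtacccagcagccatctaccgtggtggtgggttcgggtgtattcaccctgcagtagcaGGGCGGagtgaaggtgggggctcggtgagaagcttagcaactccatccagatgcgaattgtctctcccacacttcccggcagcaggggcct
Dct: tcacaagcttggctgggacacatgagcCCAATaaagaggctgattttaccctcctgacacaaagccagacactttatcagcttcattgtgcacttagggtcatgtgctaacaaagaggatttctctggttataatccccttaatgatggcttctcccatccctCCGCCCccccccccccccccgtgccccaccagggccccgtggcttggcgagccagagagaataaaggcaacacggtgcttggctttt
Akr1c13: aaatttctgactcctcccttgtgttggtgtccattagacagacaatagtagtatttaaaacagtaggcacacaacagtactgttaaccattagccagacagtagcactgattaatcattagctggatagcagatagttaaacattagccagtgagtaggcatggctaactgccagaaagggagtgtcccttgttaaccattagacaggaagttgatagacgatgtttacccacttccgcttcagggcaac
Krt39: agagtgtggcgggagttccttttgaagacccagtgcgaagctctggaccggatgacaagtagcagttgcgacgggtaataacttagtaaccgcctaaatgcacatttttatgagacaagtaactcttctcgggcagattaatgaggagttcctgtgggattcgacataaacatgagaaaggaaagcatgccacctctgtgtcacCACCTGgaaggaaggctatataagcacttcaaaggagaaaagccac
Msgn1: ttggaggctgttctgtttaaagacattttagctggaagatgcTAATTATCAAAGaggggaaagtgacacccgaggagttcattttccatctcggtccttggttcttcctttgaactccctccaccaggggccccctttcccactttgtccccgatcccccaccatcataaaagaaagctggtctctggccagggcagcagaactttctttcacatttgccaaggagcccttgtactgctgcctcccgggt
Hoxb1: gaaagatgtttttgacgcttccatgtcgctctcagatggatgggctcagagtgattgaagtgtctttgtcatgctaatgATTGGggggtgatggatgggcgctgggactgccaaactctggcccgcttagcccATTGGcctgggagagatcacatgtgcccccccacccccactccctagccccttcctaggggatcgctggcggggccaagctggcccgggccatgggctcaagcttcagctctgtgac
Rxra: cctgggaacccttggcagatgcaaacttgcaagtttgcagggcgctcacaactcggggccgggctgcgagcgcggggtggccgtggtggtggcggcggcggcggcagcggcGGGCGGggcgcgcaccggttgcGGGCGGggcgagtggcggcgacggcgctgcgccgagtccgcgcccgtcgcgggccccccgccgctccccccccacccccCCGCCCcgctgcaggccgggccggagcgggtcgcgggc

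The stretches lie at chr7:79810477-79810726 (plus strand, Mesp2), chr14:118052247-118052496 (minus strand, Dct), chr13:4190937-4191186 (plus strand, Akr1c13) and chr11:99521339-99521588 (minus strand, Krt39). Those of the added genes lie at chr12:11208949-11209198 (minus strand, Msgn1), chr11:96365508-96365757 (plus strand, Hoxb1) and chr2:27676951-27677200 (plus strand, Rxra). Counted from the start in the promoter table, the p300 summit fell 20 bp after the start of Mesp2, just past the printed stretch. It fell 173 bp before the start of Dct, 62 bp before that of Akr1c13, 138 bp before that of Krt39, 184 bp before that of Msgn1, 191 bp before that of Hoxb1 and 77 bp before that of Rxra. Mesp2 and Dct held 1 GC box each and Rxra 3. In Msgn1 the homeodomain and TCF/LEF motifs overlapped by 1 base, and Akr1c13 held none of the 14 motifs in this stretch. CpG was scarce in 6 of the 7 promoters and abundant in Rxra. The observed over expected CpG in the promoter of 300 bases, which runs 50 bases past the start, was 0.403 for Mesp2, 0.236 for Dct, 0.141 for Akr1c13, 0.517 for Krt39, 0.197 for Msgn1, 0.380 for Hoxb1 and 1.08 for Rxra. A match describes the letters and does not show a bound site.

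The deposited peak lists of the 12 immunoprecipitations were of unequal length. After peaks at input peaks were removed, the p300 gastruloid lists held 63117 and 75346 peaks (replicates 1 and 2, the order kept below) and the p300 mESC lists 44506 and 35371. The lists held 29867 and 3111 peaks for RXRα in gastruloids, 19714 and 11932 for Sp5, 44310 and 12222 for Zeb2, and 49661 and 28112 for RXRα in mESCs. Replicate 1 was the longer list for every factor. As a check of the labels, 7 of 8 gastruloid marker genes (such as T, Tbx6 and Cyp26a1) had more gastruloid-only than mESC-only p300 regions within 100 kb, 33 against 2 in all. The 7 mESC markers had 17 against 22, though Sox2 (6 against 5) and Klf4 (3 against 2) had more gastruloid-only regions. Markers of blood had 0 against 2, of heart 3 against 4, of trophoblast 8 against 12 and of primitive endoderm 8 against 2. Of the primitive endoderm markers, Gata4 (4 against 0) and Gata6 (4 against 1) had more in gastruloids and Sox7 (0 against 1) fewer. Expression was not measured.

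Most of the 1775 regions had a peak in a single library of some factor, so their label holds only at the level of reproducible regions. Zeb2 replicate 1 had a peak at 65.1% of them and replicate 2 at 0.732%. RXRα in gastruloids had 45.1% and 0.394%, and Sp5 had 37.5% and 3.55%. In all, 1323 (74.5%) overlapped a peak in at least 1 of the 6 factor libraries, and 452 (25.5%) overlapped none. The choice itself limits these splits, because p300 regions where peaks of both libraries of a factor met were dropped. Few of the regions left could thus have both. With a factor, the shares were 97.3% and 50.7% for Zeb2, 80.0% and 10.1% for RXRα, and 93.3% and 82.8% for Sp5. Length of list moves with these shares too, since the second RXRα list held 3111 peaks against 29867. Its part in the result was not tested. The distal gastruloid-only regions without factors, more than 1 kb from any gene end, had such a peak at 31.8%. The region at Mesp2, for example, had a Zeb2 peak in replicate 1 alone, that at Akr1c13 had peaks of RXRα and Sp5 in replicate 1 and of Zeb2 in replicate 2, and those at Taar9, Prss30 and Sptlc3 had none.

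**Figure D1:**
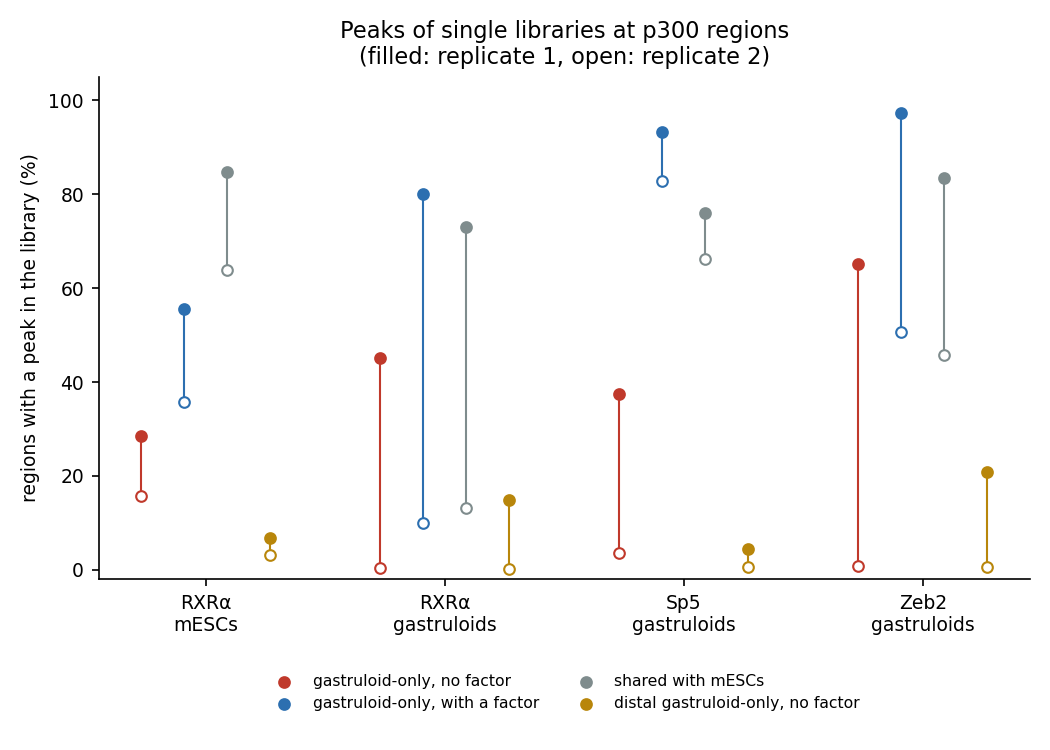
Share of regions (vertical axis, percent) with a peak in each library of RXRα in mESCs and of RXRα, Sp5 and Zeb2 in gastruloids, for 4 classes of p300 region. Filled and open points are replicates 1 and 2 and the line joins them. For the regions without factors (red) the factor points run from 37.5% to 65.1% in replicate 1 and from 0.394% to 3.55% in replicate 2. The choice dropped regions where peaks of both libraries of a factor met, which limits this split.

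The p300 peaks at these regions were modest. The fold enrichment at the summit is the authors' ratio of fragments to local background, read here with 1 added to each. It had a median of 4.75 in replicate 1 and 5.23 in replicate 2. It ranged from 2.25 to 18.8 and from 2.32 to 23.8. In gene-end gastruloid-only regions with a factor the medians were 5.04 and 5.55, in gene-end regions shared by all 4 p300 libraries 5.99 and 6.73, and in the distal regions without factors 6.09 and 6.80. The median summit held 21 and 18 fragments, against 26 and 22 with a factor and 38 and 32.5 in shared regions. The counting error of such a peak is roughly the square root of its fragments, and its part in presence or absence in the lists was not tested. The median width was 602 bp, against 864 bp with a factor, 954 bp in shared and 437 bp in distal regions. These heights come from the lists that chose the regions and are given without a test.

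Replicate 2 gave the higher fold at 1183 of the 1775 regions (66.6%), with a median ratio of 1.11. Across regions, which are not independent replicates, the folds of both libraries had a Spearman correlation of 0.705, over regions that share the same 2 libraries. The lower of the 2 folds was at least 8 at 133 regions and at least 12 at 27. Its median was 4.49, against 5.75 over all p300 regions of gastruloids, so a typical region stood near the 25.0th percentile of them. Of the 133, 49 lay at a gene start, 59 at the other end and 25 at genes of unlisted strand, whereas over all 1775 the numbers were 1098, 304 and 373.

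**Figure D2:**
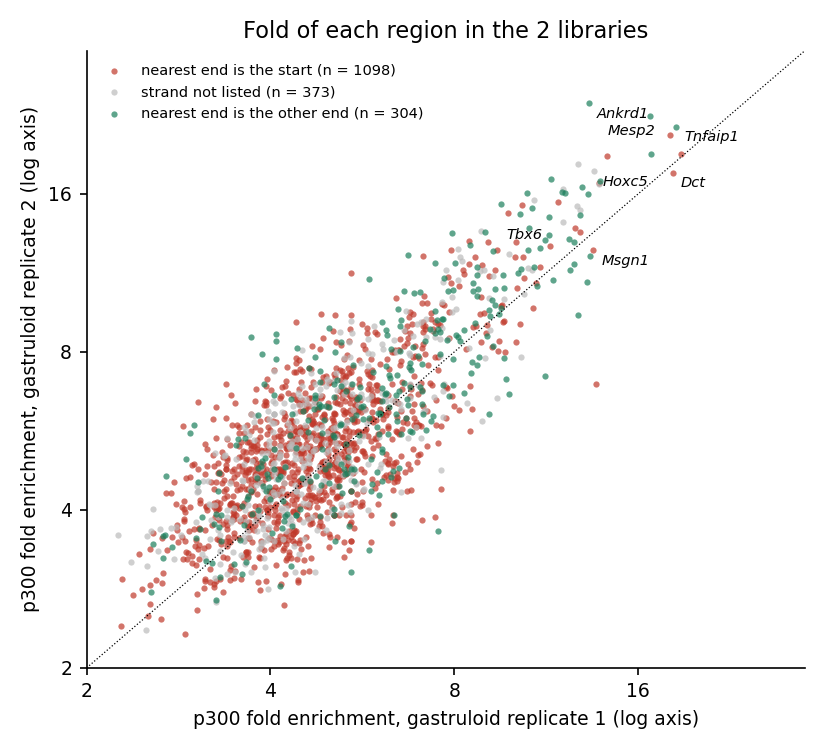
Fold enrichment of p300 at each of the 1775 regions in gastruloid replicate 1 (horizontal, log axis) and replicate 2 (vertical, log axis). Each point is 1 region, coloured by the nearest gene end, and the dotted line marks equal folds. Most points lie above the line, and regions at the other end (green) make up 59 of the 133 whose lower fold is at least 8.

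Most regions lay at the start of the gene, but fewer than among regions with a factor. Gene ends, and distances to them from here on, are the outermost ends in the RefSeq gene table. The strand was listed for 17491 of 21883 protein-coding genes, which settled the nearest end for 1402 of the 1775 regions: 1098 (78.3%) lay at the start and 304 (21.7%) at the other end. Over all gene-end p300 regions of gastruloids with a known end, 91.9% lay at the start. Measured on the summit of each library alone, the share was 78.2% and 78.4%. Regions with a factor had 3564 of 3658 at the start (97.4%), a difference of −19.1 percentage points (odds ratio 0.0953, 95% interval 0.0749 to 0.121, two-sided Fisher's exact test over regions, adjusted p = 1.34e-98). Shared regions had 1070 of 1240 at the start (86.3%), a difference of −7.97 points (odds ratio 0.574, 0.467 to 0.705, two-sided Fisher's exact test, adjusted p = 8.88e-08). Both differences were wider without the second library of Zeb2 (−40.1 and −30.4 points), of RXRα in gastruloids (−29.8 and −19.4) or of Sp5 (−29.1 and −18.2), with p300 lists of equal length (−32.1 and −19.1) and when a factor peak in either library counted (−48.2 and −38.9).

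The comparison with shared regions depended on which shared regions were taken. Among the shared gene-end regions without a factor, 200 of 330 (60.6%) lay at the start, so that the gastruloid-only regions without factors stood 17.7 points higher (odds ratio 2.35, 1.82 to 3.03, Fisher's exact test, p = 1.36e-10). With peaks of −log10 q of at least 5 alone, the difference from shared regions was 1.15 points the other way (Fisher's exact test, adjusted p = 0.515). Among the 452 regions with no peak in any factor library, 170 of the 359 with a known end (47.4%) lay at the start. These p-values measure the spread over regions, not over cultures. The summits of all classes came from the same 2 p300 gastruloid libraries, and no test over libraries was made. Even an unpaired exact test of 2 libraries against 2 cannot fall under 0.333.

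At the start, summits sat close to it. The median position was 52 bp downstream, with quartiles 95 bp upstream and 216.5 bp downstream, and 711 (64.8%) of the 1098 lay within 250 bp. The corresponding share was 74.7% with a factor and 57.9% in shared regions. Summits upstream of the start numbered 440 (40.1%). Starts of a pair of genes lay within 1 kb of the summit on opposite strands at 99 of all 1775 regions (5.58%), against 429 of 4517 (9.50%) with a factor. These last shares are over regions at any end, and the classes differ in their share at a start.

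**Figure D3:**
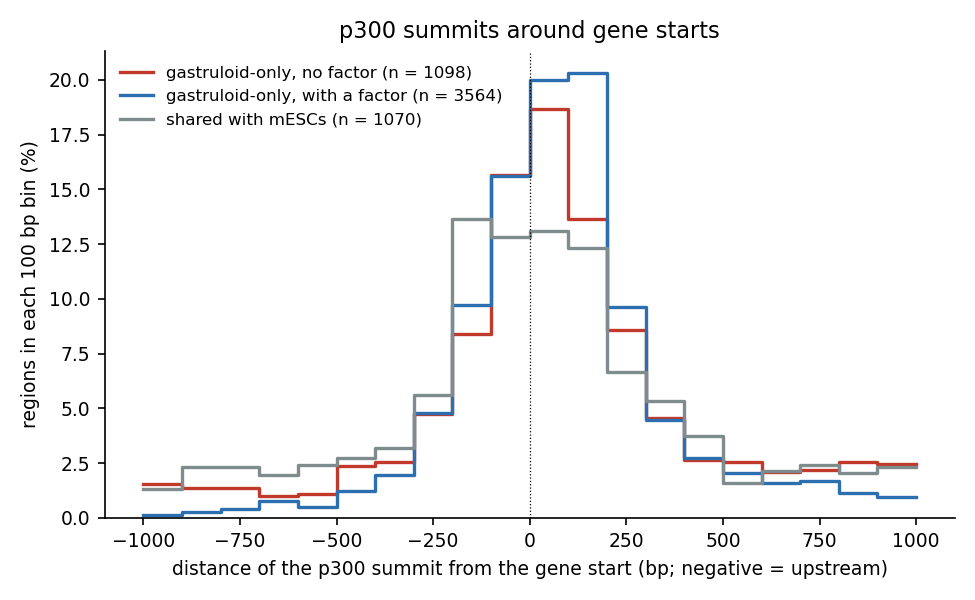
Position of the p300 summit relative to the nearest gene start (horizontal axis, base pairs, negative values upstream) for regions at a start, as a percentage of each class in each bin (vertical axis). The regions without factors (n = 1098) centre just downstream of the start, with a median of 52 bp, and 64.8% of them lie within 250 bp of it.

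At the other end, regions were narrower and higher. The 304 regions there had median folds of 5.87 and 6.37 and a median width of 460.5 bp, against 4.64 and 5.07 and 652 bp for the 1098 at a start. The other classes went the same way: shared regions at the other end had 6.43 and 7.45 and 542.5 bp, against 5.95 and 6.73 and 1022.5 bp at a start. Regions with a factor had 5.15 and 5.62 and 623.5 bp, against 5.05 and 5.55 and 874.5 bp. The summit lay inside the gene at 143 of them (47.04%) and beyond it at the rest. Only 19 of the 304 (6.25%) had a listed start of any gene within 1 kb. By the lower fold, the strongest were at Tnfaip1, Rchy1, Zfp974 and Olfr960, described below.

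RXRα regions of mESCs, the cells from which gastruloids are made, lay at fewer of these regions than of those with a factor, and at more than of the distal regions. The RXRα mESC lists were not used to choose them. Of the 1775 regions, 228 (12.8%) overlapped an RXRα region found in both mESC libraries, against 21.2% of all p300 regions of gastruloids and 35.6% of those at gene ends. Taken singly, the libraries had a peak at 28.5% and 15.7% of the regions, a mean of 22.1% ± 9.003 (SD, n = 2). Regions with a factor had 1412 of 4517 (31.3%), a difference of −18.4 points (odds ratio 0.324, 0.278 to 0.378, two-sided Fisher's exact test, adjusted p = 2.73e-55), and 55.5% and 35.7% in the single libraries. With a −log10 q of at least 5 the difference was −11.9 points. The factor class includes regions chosen for RXRα in gastruloids, and RXRα was mapped in 1 line in both settings.

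Against distal regions the order was the other way round. Distal gastruloid-only regions without factors had 693 of 24701 at an mESC RXRα region (2.81%), so that the gene-end regions stood higher by 10.04 points (odds ratio 5.11, 4.36 to 5.98, two-sided Fisher's exact test, adjusted p = 2.51e-70), and 6.74% and 3.06% in single libraries. Without RXRα gastruloid replicate 2 this difference was 2.07 points, and without RXRα mESC replicate 2 it was 21.7 points. Without Zeb2 replicate 2 it was 4.04 points. If a factor peak in either library counted, it was 2.51 points. Of the 452 regions with no factor peak in any library, 17 (3.76%) had the mESC RXRα region. Shared regions, which carry p300 in mESCs too, had it at 943 of 1548 (60.9%). Shared regions without a factor had it at 197 of 398 (49.5%), a difference of −36.7 points (odds ratio 0.150, 0.118 to 0.191, Fisher's exact test, adjusted p over 2 added comparisons = 1.16e-52). The choice itself separates these classes by p300 in mESCs, so the test cannot tell a difference in RXRα apart from that one. Overlap was counted from 1 bp, and wider classes had the larger RXRα shares. The median width was 437 bp in distal regions, 602 bp in the gene-end gastruloid-only regions without factors, 864 bp with a factor and 954 bp in shared regions. The part of width in these differences was not tested.

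The promoters were less rich in CpG than those of the other p300 classes and richer than those of genes with no p300 region at an end. Promoters of 300 bases were taken for 986 genes with a region at the start, where a listed promoter start lay within 1 kb of the summit. The classes with a factor and shared were held to the same limit. For all genes and for genes with no p300 region, the promoter nearest the outermost start was taken, without that limit. Their median GC content was 58.0% and their median CpG observed over expected 0.743, and 597 (60.5%) were CpG-rich, taken as a ratio over 0.6 and GC over 50%. With a factor, the medians were 62.7% and 0.815, with 80.9% CpG-rich. Shared regions had 63.7%, 0.771 and 73.5%. All 17491 listed promoters had 56.3%, 0.577 and 45.5%, and genes with no gastruloid p300 region at either end had 50.3%, 0.266 and 21.3%. High peaks were rarer at CpG-rich promoters: the lower fold was at least 8 at 7 of the 597 and at 33 of the 389 others, and 10 of the 50 highest were CpG-rich.

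**Figure D4:**
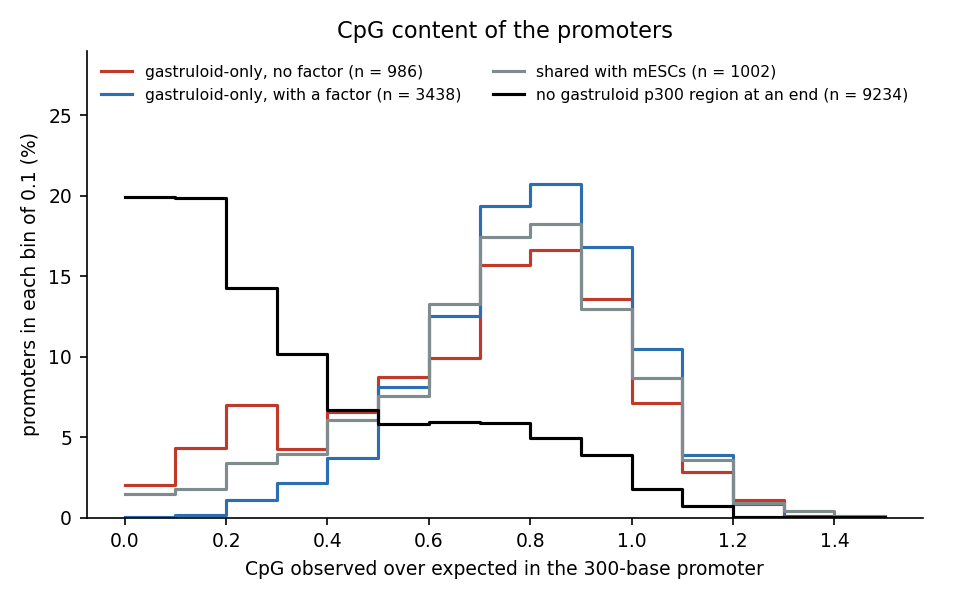
Observed over expected CpG in promoters of 300 bases (horizontal axis, bins of 0.1), as a percentage of the promoters of each class (vertical axis). The promoters without factors (red) have a shoulder below 0.4 that the promoters with a factor (blue) lack, with medians of 0.743 and 0.815, and genes with no gastruloid p300 region at an end (black) have a median of 0.266.

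Of 14 short motifs counted on both strands of these promoters, the GC box had the widest gap in percentage points from its share in the class with a factor. As a ratio, TAATTA (3.85% against 1.98%), the TCF/LEF motif (3.55% against 2.18%) and the T-box motif (0.406% against 0.844%) were further apart. The T-box shares rest on 4 of 986 and 29 of 3438 promoters. GGGCGG, the box bound by Sp family proteins, was in 47.8% of the 986 promoters, 76.0% with a factor, 73.5% of shared and 46.3% of all promoters. Within CpG-rich promoters alone the shares were 59.8%, 81.2%, 83.4% and 77.0%. Absence of Sp5 regions is part of the choice, so this is a description. The TATA box TATAAA was in 8.82%, against 5.93% with a factor and 13.3% of all. CCAAT was in 41.9% (39.2% of all), the ETS motif CCGGAAG in 16.8% (11.9%), the E-box CACGTG in 9.63% (7.91%) and the E-box CAGGTG in 14.0% (19.3%). The NRF1 core GCGCATGC was in 5.78% (3.60% of all), the CRE TGACGTCA in 4.26% (2.33%), the YY1 motif AAGATGGCG in 3.25% (1.92%) and the ZNF143 core ACTACAA in 5.38% (3.82%). AGGTCA, the letters of nuclear receptor sites, was in 11.9% (14.5%), the TCF/LEF motif CTTTGAT in 3.55% (3.28%), TAATTA of homeodomain proteins in 3.85% (4.68%) and the T-box AGGTGTGA in 0.406% (1.17%).

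Among the genes of the 20 lists, the highest region was that of Mesp2, the bHLH factor that sets the boundary of each forming somite. It covered chr7:79810509-79811180 with folds of 18.03 and 20.7 and 131 and 134 fragments at the summit, 20 bp past the start. Only 2 of the 1775 regions had a higher lower fold, those of Gm12789, a predicted gene (18.8 and 19.04, 923 bp upstream of the start), and of Tnfaip1, an adaptor of ubiquitin ligases (18.4 and 21.5, inside the gene 559 bp before the other end). Dct, an enzyme of melanin synthesis in pigment cells, followed with 18.2 and 17.6. At these 4 genes the folds of both libraries ran from 17.6 to 21.5.

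Of the 20 highest regions, 7 lay at a start, 8 at the other end and 5 at genes of unlisted strand. Rchy1, which encodes a ubiquitin ligase, had 16.8 and 19.1 at 827 bp inside its other end, with no factor peak in any library. Zfp974, a zinc finger gene, had 16.7 and 22.5 at 165 bp inside its other end. Akr1c13, an aldo-keto reductase, had 14.2 and 18.9 at its start. The other ends of Ankrd1, a muscle ankyrin repeat protein and known target of YAP (13.3 and 23.8), of the trace amine receptor gene Taar9 (13.2 and 15.998), of Phlpp2, a phosphatase of Akt (12.95 and 16.5), and of Sptlc3, a subunit of serine palmitoyltransferase (12.9 and 14.6), were further cases. Ankrd1 had the widest gap between libraries among the 20. Odorant receptor gene Olfr960 (13.9 and 16.97), seminal vesicle gene Svs1 (13.8 and 16.8), protease gene Prss30 (12.9 and 13.5), keratin gene Krt39 (12.6 and 13.8) and uroplakin gene Upk1b (12.7 and 15.2) are known from adult tissues. Ticam2, an adaptor of Toll-like receptors (13.8 and 16.7), Mkrn2 (12.9 and 14.9) and Ccdc162 (12.8 and 18.2) lay at genes of unlisted strand. Nearness to an end does not show which gene a region acts on.

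Presomitic mesoderm and somite genes had the largest share of the 20 gene lists. A region lay at an end of 1934 of the 21883 protein-coding genes (8.84%). Any gastruloid p300 region lay at an end of 10227 genes (46.7%), of which the 1934 were 18.9%. A region with a factor lay at 23.6% of all genes and a shared one at 7.73%. Of 24 somite genes, 7 had one (29.2%): Mesp2, Msgn1, Tbx6, Dmrt2, Tcf15, Pax3 and Pax1. Taken only over genes with any p300 region at an end, the share was 53.8% of 13 somite genes, below that of the adult tissue control (60% of 5) and of the heart, vessel and blood list (66.7% of 3). Msgn1, a bHLH factor that drives presomitic mesoderm, had folds of 13.5 and 12.5 at 184 bp upstream of its start. Tbx6, the T-box factor that directs cells to mesoderm rather than neural fate, had 12.3 and 13.1 inside the gene 204 bp before its other end, with 158 and 131 fragments. The regions of Dmrt2 (6.19 and 6.68), Tcf15 (4.72 and 6.45 at the higher of 2), Pax3 (3.91 and 3.24) and Pax1 (3.84 and 2.82) were lower. Pax1 had 15 and 8 fragments, so its fold rests on few counts.

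Hox genes, which assign position along the body axis, had a region at 8 of 39 (20.5%, and 40% of the 20 with any p300 region at an end). Their 9 regions had the highest median lower fold of the lists with 3 or more regions, 8.06 against 4.49 over all 1775. Hoxc5 had folds of 13.6 and 17.7 with 363 and 361 fragments. Hoxa5 had 11.4 and 13.3 with 520 and 439 fragments, 635 bp beyond its other end and with no factor peak in any library. Hoxb1, the first Hox gene of its cluster to be switched on, had 10.3 and 15.2 with 288 and 358 fragments, 179 bp upstream of the outermost start in the gene table (191 bp from the start of the printed promoter). The fragments at Hoxc5, Hoxa5 and Hoxb1 exceeded the 131 and 134 of Mesp2 although their folds were lower. The local background against which a fold is taken was 25.8 and 19.4 fragments at Hoxc5, 44.6 and 32.0 at Hoxa5, 27.0 and 22.6 at Hoxb1, and 6.32 and 5.51 at Mesp2. Hoxa2 (8.66 and 12.2), Hoxa10 (8.06 and 8.61 at the higher of 2), Hoxb5 (5.58 and 5.40), Hoxd3 (4.73 and 6.44) and Hoxc6 (4.58 and 5.26) completed the list. Hox genes lie close together, so an end of 1 gene can be near the start of the next.

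Neural tube genes had a region at 6 of 25 (24%), led by the proneural gene Neurog2, the Notch target Hes5 and the zinc finger gene Zic2. Neurog2 had folds of 6.77 and 6.91 at 55 bp upstream of its start, Hes5 5.87 and 7.16 at 154 bp downstream and Zic2 4.95 and 7.09. Of 20 tail bud genes, 3 had one (15%): Sp8, a zinc finger factor of the Sp family (7.64 and 9.24), the homeobox gene Evx1 (4.18 and 4.41) and the activin inhibitor Fst (3.39 and 4.01). Of 19 heart, vessel and blood genes, 2 had one (10.5%), the cardiac factors Nkx2-5 (4.11 and 4.36) and Isl1 (4.08 and 4.01). None of 11 neural crest genes and none of 14 endoderm and notochord genes had one, though 3 and 4 of these had a region with a factor. With 8.84% of all genes having one, lists this short can hold none without departing from that share.

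**Figure D5:**
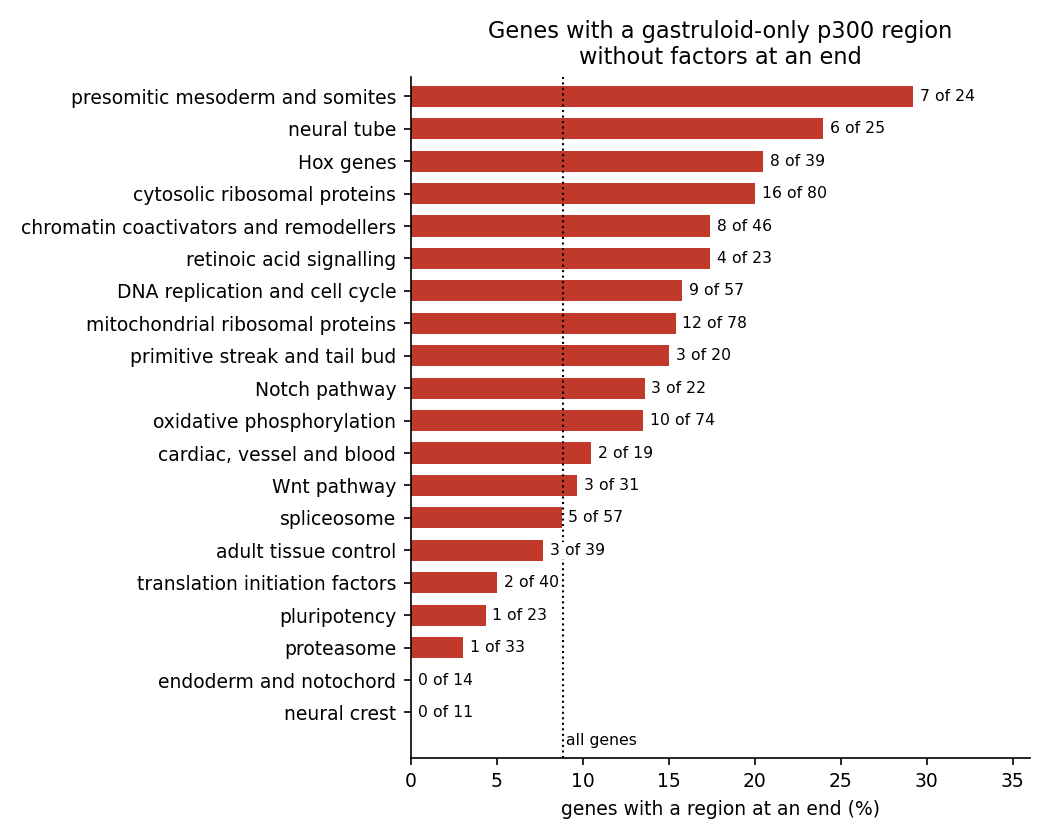
Share of the genes of each of the 20 lists (horizontal axis, percent) with a region without factors at an end; the label of each bar gives the count and the dotted line marks the 8.84% of all protein-coding genes. Somite, neural tube and Hox genes have 29.2%, 24% and 20.5%, the adult tissue control 7.69% and the proteasome 3.03%.

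In the signalling lists the median lower fold was 4.31 for retinoic acid, 3.81 for Notch and 4.80 for Wnt, against 4.49 over all 1775 regions. Over all genes 8.84% had a region, and 18.9% of genes with any gastruloid p300 region at an end. On the latter base the shares were 36.4% of 11 retinoic acid genes, 20% of 15 Notch genes and 12% of 25 Wnt genes. Retinoic acid signalling had 4 of 23 (17.4%): the receptor genes Rxrg (5.78 and 7.26), Rxra (4.79 and 6.22) and Rxrb (3.83 and 4.53), and Meis1, a homeobox gene that responds to retinoic acid (2.90 and 2.32). Notch had 3 of 22 (13.6%): the coactivator genes Maml2 (4.38 and 4.55) and Maml3 (4.14 and 4.64 at the higher region), and Nrarp, a feedback inhibitor (2.29 and 2.95). Wnt had 3 of 31 (9.68%): Wls (6.88 and 5.99) and Porcn (5.08 and 4.80), both needed to secrete Wnt proteins, and the cyclin gene Ccnd1 (2.25 and 3.58). A region with a factor lay at 17 of the 31 Wnt genes (54.8%), against 23.6% of all genes. Any gastruloid p300 region lay at an end of 25 of the 31 (80.6%), against 46.7% of all genes. Of 23 pluripotency genes, 1 had a region, Sall4 (2.50 and 2.36), and 4 a region with a factor.

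The genes of the profiled proteins fell into both classes. Rxra, with a region 679 bp from its outermost start, and Zeb2, with 1 at 255 bp from its start (4.24 and 3.21), had no reproducible factor region there. Both had a peak of RXRα and of Zeb2 in the first library alone. Ep300 (6.06 and 6.78) and Sp5 (11.4 and 11.1, 58 bp from its start) had a region with a factor.

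Housekeeping genes were found in both classes. As over all genes (8.84% and 23.6%), more of them had a region with a factor than one without. Of 80 cytosolic ribosomal protein genes, 16 had a region without factors (20%) and 49 one with a factor (61.2%). As 71 of the 80 had any p300 region at an end, the 16 were 22.5% of these, near the 18.9% of all genes. Rpl9 had 5.26 and 6.80, Rps26 5.20 and 6.35 and Rpl10 4.92 and 5.95, all at the start. Of 78 mitochondrial ribosomal protein genes, 12 had one (15.4%) and 37 one with a factor (47.4%). Mrpl23, inside the gene 441 bp before its other end, had 11.3 and 13.1, and Mrpl11 (5.39 and 8.40) and Mrpl44 (5.27 and 7.74) were at the start. For oxidative phosphorylation the counts were 10 of 74 (13.5%) and 28, led by Atp5h (5.95 and 6.45), Ndufa6 (6.61 and 5.89) and Ndufa13 (5.20 and 5.80).

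The other lists of basic functions ranged from the proteasome to the chromatin coactivators. Over all genes 8.84% had a region, and 18.9% of genes with any gastruloid p300 region at an end. On the latter base the shares were 19.6% for replication and cell cycle and 21.1% for coactivators, both near 18.9%. They were 10.6% for the spliceosome, 5.41% for translation initiation and 3.57% for the proteasome. Of 33 proteasome genes, Psmc1 alone had a region (5.48 and 5.35; 3.03%), and 25 had one with a factor. Spliceosome genes had 5 of 57 (8.77%), led by Prpf31 (6.25 and 7.42), Snrpc (4.60 and 4.53) and Prpf4 (5.04 and 4.39). Translation initiation had 2 of 40 (5%), Eif3f (4.69 and 5.82) and Eif4ebp2 (3.53 and 4.37). Replication and cell cycle had 9 of 57 (15.8%), led by the origin subunit gene Orc5 (8.73 and 7.57), the phosphatase gene Cdc25b (7.09 and 6.77) and Cdk6 (5.99 and 6.11). Coactivators and remodellers had 8 of 46 (17.4%), led by the acetyltransferase gene Kat2a (5.47 and 4.71), the BAF subunit gene Arid1b (4.63 and 6.32) and the nuclear receptor coactivator gene Ncoa1 (4.33 and 5.90). The adult tissue list, written as a control, had 3 of 39 (7.69%): Krt10 (5.06 and 5.57), Apoa1 (4.63 and 7.45) and Ins2 (3.79 and 4.46).

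Regions were spread thinly over genes and chromosomes. A single region lay at 1873 of the 1934 genes, 2 at 60, and 3 at Idnk, a gluconokinase gene, whose folds were 3.55 and 5.05, 4.22 and 3.56, and 3.30 and 4.70. At 213 regions, 2 or more genes had an end within 1 kb. A gene-end region that was gastruloid-only with a factor, or shared by all 4 p300 libraries, was also present at 258 of the 1934 genes. The share of genes with a region ran from 6.47% on chromosome 14 to 11.8% on chromosome 8, with 9.42% on X and 0 of 256 genes on Y. Another p300 region of gastruloids lay within 10 kb of 50.5% of the regions and a p300 region of mESCs within 10 kb of 32.2%, against 46.6% and 37.5% with a factor.

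The lowest folds belonged to Sall4, Meis1, Nrarp, Rai1 (2.28 and 2.41) and Ccnd1. Their summits held 28 to 49 fragments, above the medians of 21 and 18, over a local background of 10.2 to 19.01 fragments. The choice set a limit of 1 kb to a gene end. Just inside it lay the regions of Smim34 and Plch1 (both 995 bp) and of Idnk (993 bp), with folds of 10.7 and 15.1, 2.57 and 3.62, and 4.22 and 3.56. Just outside lay those of Sftpd and Pde10a (both 1002 bp) and of Slco1c1 (1004 bp), with 7.02 and 8.49, 4.00 and 4.95, and 9.21 and 12.9.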

How the data were processed

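Peak lists of 12 immunoprecipitations and 2 inputs in 8 groups were analysed, 1 deposited list per library, with 422096 peaks in all. The submitters' processing notes name MACS2 2.2.7, BWA 2.2.1 and fastp 0.20.1 and the build GRCm38.p6 (mm10); their roles and the use of the inputs are not given in the sources used here. The deposited fold is the authors' ratio of the summit to local background, read here with 1 added to each. The deposited −log10 p and −log10 q of each peak are also the authors'. The deposited score equals 10 times the −log10 q, rounded down, for 99.96% of peaks and was not used. Sequencing depth is not given, and reads were not analysed here. Fragments at a summit were recovered from fold and −log10 p as the whole number that fitted best. The −log10 p it gave lay within 0.01 of the deposited one in both libraries for all 1775 regions.

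Peaks overlapping an input peak were dropped. Peaks of both replicates were merged and kept where each replicate had 1, with an overlap of at least 1 bp. Genes were 21883 protein-coding RefSeq genes of GRCm38.p6 on 21 chromosomes; the strand came from the RefSeq promoter table. Shares were compared over regions with Fisher's exact test, two-sided, and Benjamini-Hochberg adjustment over 4 comparisons (threshold 0.05), tested first on simulated data, with Python 3.11.15 and scipy 1.17.1. Regions are not replicates of a condition. Regions, gene lists and tests were chosen with earlier results of these data known, and the 20 lists (754 genes) are described by counts. Named are the 20 regions with the highest lower fold, the 3 highest genes of each list, genes with 3 regions, the 5 lowest regions, 3 on each side of 1 kb and the genes of the profiled proteins; other members of the somite and Hox lists were added after their values were seen. Alternatives varied the peak threshold, overlap, distance, list length, input removal, factor presence and each library.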

Additional observations from a re-analysis of the deposited data

How the results depend on the processing

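The number of regions depended on the libraries. It was 547 with the 4 p300 lists cut to equal length and 452 when a factor peak in either library counted. Leaving out 1 library gave 620 (without Zeb2 replicate 2) to 2965 (without p300 gastruloid replicate 1), with 974 without RXRα gastruloid replicate 2 and 1115 without Sp5 replicate 2. The other 11 alternatives stayed within 1.5 times of 1775. Against shared regions, the difference in the share at a start was 1.15 points with a −log10 q of at least 5 and 17.7 points against shared regions without factors, a comparison chosen after seeing the data. Both are the reverse of the −7.97 points reported, and the cause was not tested. Its other 16 alternatives kept direction and call, with −30.4 to −7.35 points when 1 library was left out. Against regions with a factor, all 17 alternatives kept direction and call (−48.2 to −13.3 points). For the mESC RXRα share all 19 did, both against regions with a factor (−27.6 to −11.9 points) and against distal regions (2.07 to 21.7 points). No paired analysis was possible because each result is a presence in lists over regions, with no fit over samples. Sequencing depth is not given, and its part in these counts was not tested.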
